A study of Mus musculus with 106 samples.

Results

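The promoters of 3249 of 21938 protein-coding genes (14.8%) carried a strong peak of both histone marks in nearly every library, and these genes are called members here. A gene was a member when the window of 1000 bp to either side of any of its annotated start sites overlapped one of the 10000 strongest peaks, by −log10 p, in at least 66 of 70 peak lists. The members were thus chosen by these lists, and their presence and high rank in them are a description, with no test. Peaks were ranked inside each list, so that rank 1 is the strongest peak of a library, and a low rank number means a strong peak.

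The lists came from chromatin immunoprecipitation and sequencing (ChIP-seq) of H3K27ac and H3K4me3 in bone marrow cells of C57BL/6J mice, with 35 lists for each mark. Mice were 12 to 14 weeks old, and were controls or had been made diabetic with streptozotocin (42 to 45 mg/kg per day for 5 days), which destroys the insulin-making cells, with cells taken 6 weeks later at a blood glucose above 13.9 mmol/L. Cells were HSC, here marrow depleted of cells with lineage markers and therefore a mix of stem and progenitor cells, or bone marrow-derived macrophages (BMDM) grown for 7 days in 5 mmol/L glucose, so that the diabetic BMDM had left the diabetic animal. BMDM were left unstimulated or given lipopolysaccharide (LPS, 100 ng/mL) with interferon-γ (IFN-γ, 10 ng/mL) for 16 hours. Each mark had 6 libraries in each group of disease and cell state, except diabetic unstimulated BMDM with 5. Per mark this gave 12 HSC, 11 unstimulated and 12 stimulated BMDM libraries. The study's methods count individual animals as n, and the labels do not say whether a replicate number marks the same animal in different cell states.

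H3K4me3 is a histone mark laid down around the start sites of genes, above all where the DNA is rich in unmethylated CpG dinucleotides (CpG islands). H3K27ac is laid down by acetyltransferases at active promoters and enhancers. Genes that every cell needs, for splicing, translation or protein folding, mostly start in CpG islands, and pairs of such genes often start back to back from 1 shared, bidirectional promoter.

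Promoter windows of 300 bases from RefSeq (GRCm38.p6) matched 2623 of the members (80.7%), with 3452 windows. Printed here, to show the base composition and the motifs counted for all windows, are 6 high-ranking members, each with 1 motif named and marked, from the 250 bases before the start site, written 5′ to 3′ along the gene's strand. Capitals mark the named motif or its reverse complement, which overlap in Tbc1d5 and Psmb4, and other motifs in these sequences are not marked. Zcchc9 codes for a zinc knuckle protein, Tbc1d5 for a regulator of retromer, Prkar1a for a regulatory subunit of protein kinase A, Gpatch3 for a G-patch protein, Zfp335 for a zinc finger protein and Psmb4 for a proteasome subunit.
Zcchc9, ETS, chr13:91807697-91807946, reverse strand: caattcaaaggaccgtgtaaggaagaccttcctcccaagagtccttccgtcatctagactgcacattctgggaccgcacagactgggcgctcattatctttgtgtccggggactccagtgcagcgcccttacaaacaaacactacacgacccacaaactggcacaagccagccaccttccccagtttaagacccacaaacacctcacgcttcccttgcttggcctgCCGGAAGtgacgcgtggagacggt
Tbc1d5, NRF1, chr17:51179353-51179602, reverse strand: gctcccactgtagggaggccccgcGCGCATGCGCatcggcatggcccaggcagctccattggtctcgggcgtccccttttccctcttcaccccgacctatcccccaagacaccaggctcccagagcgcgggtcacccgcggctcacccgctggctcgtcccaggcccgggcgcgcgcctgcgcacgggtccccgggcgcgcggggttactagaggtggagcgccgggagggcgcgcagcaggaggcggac
Prkar1a, YY1, chr11:109651092-109651341, forward strand: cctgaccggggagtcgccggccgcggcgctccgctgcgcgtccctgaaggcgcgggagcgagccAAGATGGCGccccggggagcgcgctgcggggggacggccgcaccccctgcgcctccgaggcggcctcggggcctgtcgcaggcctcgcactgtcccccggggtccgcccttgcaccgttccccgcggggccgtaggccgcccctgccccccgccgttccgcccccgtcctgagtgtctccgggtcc
Gpatch3, CTCGCGAG, chr4:133574495-133574744, forward strand: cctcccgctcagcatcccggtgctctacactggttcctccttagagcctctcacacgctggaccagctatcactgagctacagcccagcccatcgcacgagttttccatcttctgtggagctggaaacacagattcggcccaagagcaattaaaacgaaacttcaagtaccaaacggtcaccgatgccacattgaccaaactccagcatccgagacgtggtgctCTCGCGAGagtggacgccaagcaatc
Zfp335, CRE, chr2:164911751-164912000, reverse strand: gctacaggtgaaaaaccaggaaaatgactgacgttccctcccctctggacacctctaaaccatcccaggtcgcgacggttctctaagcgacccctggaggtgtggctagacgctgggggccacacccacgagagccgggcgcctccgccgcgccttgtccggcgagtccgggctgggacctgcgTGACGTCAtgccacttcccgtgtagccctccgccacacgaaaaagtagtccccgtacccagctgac
Psmb4, TATA, chr3:94886959-94887208, reverse strand: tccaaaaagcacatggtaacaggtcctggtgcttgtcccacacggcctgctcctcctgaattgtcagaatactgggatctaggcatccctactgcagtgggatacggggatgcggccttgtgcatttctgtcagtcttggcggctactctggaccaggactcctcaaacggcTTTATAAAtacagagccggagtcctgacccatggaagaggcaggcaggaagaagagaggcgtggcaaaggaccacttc
Their median ranks over 70 lists were 600 for Zcchc9, 1085.5 for Tbc1d5, 1159 for Prkar1a, 627 for Gpatch3, 1089.5 for Zfp335 and 611 for Psmb4.

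Member windows were rich in G, C and CpG. The median GC content was 64.7%, against 57% over 20584 windows of all coding genes and 46.7% over genes held in no list. The median ratio of observed to expected CpG was 0.840, against 0.586 and 0.176, and it exceeded 0.6 in 82.2% of member windows, 48.9% of all and 4.11% of those held in no list. The GC box GGGCGG was found in 71.3% of member windows and 47.5% of all, and the ETS motif CCGGAAG in 20.0% and 11.8%. Rarer motifs were also more frequent among members than among all windows. The NRF1 motif GCATGCGC stood in 5.74% and 3.63%, the YY1 motif AAGATGGCG in 3.88% and 1.90%, the palindrome CTCGCGAG in 3.04% and 1.28%, and the CRE TGACGTCA in 3.22% and 2.31%. The order was the opposite for TATAAA, with 5.56% of member windows, 12.4% of all and 24.9% of windows of genes held in no list. CCAAT was found in 34.7%, 38.1% and 40.7% of the same sets. Each motif was searched on both strands, GC-rich letters are found more often in GC-rich windows, and a match is a description of the letters only.

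Lists held 13730 to 277213 peaks, and 2669 to 3249 members (median 3211.5) were held per library. Pileups are not in the lists. At weak peaks (−log10 p up to 8) they were inferred from fold enrichment and −log10 p under a Poisson model. In 4 H3K4me3 libraries at most 7.88% of the inferred pileups were whole numbers, against 100% in the other 66. These were control LPS+IFN-γ replicate 6, diabetic LPS+IFN-γ replicates 1 and 2 and control unstimulated replicate 6. Whether their pileups were scaled otherwise was not tested. With 4 misses still allowed over the 66 other lists, 3536 genes met the rule. Of the H3K27ac control BMDM, 3 libraries went against their labels over 27 regions found in all stimulated and 28 found in all unstimulated diabetic BMDM libraries. Replicate 5 of those labelled LPS+IFN-γ had 25 regions of the unstimulated kind and 5 of the other. Replicates 5 and 6 of those labelled unstimulated had 5 and 1 regions of the unstimulated kind, and 19 and 17 of the other. Replicate 1 of those labelled unstimulated was near even, with 10 and 8. The regions were chosen to separate the diabetic BMDM libraries by state, so those libraries could not be checked this way. Of the 6 HSC and progenitor markers, 5 were held by H3K27ac in HSC and in no BMDM library, with Myb in 12 of 12, Gata2 in 10, Flt3 in 9 and Kit and Cd34 in 4 each, while Mpo was held in no list. By H3K4me3, Gata2 was held in 12 of 12 HSC and also in 11 of 11 unstimulated BMDM libraries. Macrophage markers were sparse. By H3K27ac, Csf1r was held in 0 of 12 HSC, 2 of 11 unstimulated and 7 of 12 stimulated libraries, Cd68 in 0, 7 and 5, and Mrc1 in 1 stimulated library, while Adgre1, Itgam and Msr1 were held in no list. The lymphocyte markers Cd3e, Cd4 and Cd79a and the neutrophil markers Ltf and Camp were held in no list, and the erythroid gene Klf1 in 65. None of the 26 marker genes looked at was a member.

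The number of lists that held a gene ran over the whole range. No list held 7484 genes (34.1%), 11205 were held in 1 to 65 lists, and all 70 lists held 537. Among members, H3K27ac was the steadier mark: 2556 were held in all 35 H3K27ac lists and 714 in all 35 H3K4me3 lists. Of all pairs of a member and a list, 0.889% lacked a strong peak for H3K27ac and 4.78% for H3K4me3. The rule cut through a continuum. The 567 genes held in 66 lists had a median rank of 3466.5 and the 554 held in 65 had 4016.75, with median widths of 1071 and 1081.5 bp. Just inside were Sf3b1, a core subunit of the U2 snRNP (median rank 523), and Tardbp, the RNA-binding protein TDP-43 (709). Just outside were Strap (1058) and Cflar (1094), an inhibitor of caspase-8. With the 5000 strongest peaks the same rule left 140 genes, and with 20000 it gave 7610.

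**Figure D1:**
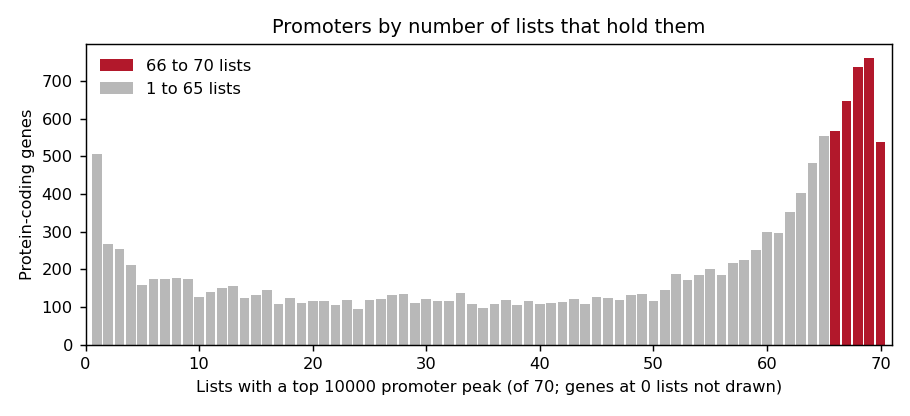
Number of protein-coding genes (bars) by the number of lists, from 1 to 70, that held their promoter. The 3249 members are red, from 567 genes at 66 lists over 760 at 69 to 537 at 70, and the 7484 genes held in no list are not drawn.

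The lowest median ranks were those of H2-Q7, Rbm39, Zc3h4, H2-Q6 and Kmt5b. H2-Q7, a class Ib major histocompatibility gene, had the lowest median rank, 154, with H3K27ac ranks from 1 to 5750 (median 316) and H3K4me3 ranks from 2 to 3333 (median 111). H2-Q7 and H2-Q6 (233.5) are near-identical neighbours, so the assignment of reads between them is uncertain. Rbm39, a splicing factor (chr2:156179262-156180292, GRCm38), followed at 170.5. Its H3K27ac ranks ran from 1 to 545 (median 12), while its H3K4me3 median was 1401 and 1 or more H3K4me3 lists had no strong peak. Zc3h4, a factor that ends transcription of non-coding RNA, had H3K27ac ranks from 1 to 364 (median 20) and an H3K4me3 median of 2303. The histone H4K20 methyltransferase gene Kmt5b (median rank 238), the RNA helicase gene Ddx6 (272) and the splicing regulator Hnrnpl (309) were of the same kind, with H3K27ac medians of 98, 74 and 156 and H3K4me3 medians of 1249, 872 and 875. Hjurp, the CENP-A chaperone, and Trpm8 shared an interval with the reverse order (273), an H3K27ac median of 369 and an H3K4me3 median of 76.

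The widest peaks were at other genes. Ubtf, a factor for ribosomal RNA transcription, had a median width of 4388 bp, with 4627 bp for H3K27ac and 3489 bp for H3K4me3. Anp32a followed with 4343.5 bp, then the G-protein gene Gnas (4130), Gse1 (4128.5), Ap5b1 (4084), the cell cycle kinase Cdk6 (4004) and Zfp36l2, which binds AU-rich mRNA (3860). Over all members the median width was 1383 bp for H3K27ac and 1033.5 bp for H3K4me3.

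By function, the share of members ran from most of the listed chaperone and SR and hnRNP splicing factor genes to none in several lists of tissue-restricted genes. Of chaperonin and heat shock genes 14 of 19 were members (73.7%), of SR and hnRNP splicing factors 22 of 31 (71%), and of chromatin modifiers 25 of 41 (61.0%), against 14.8% of all coding genes. Ubiquitin and E2 genes followed with 21 of 46 (45.7%), translation initiation factors with 21 of 55 (38.2%) and cytosolic ribosomal proteins with 28 of 83 (33.7%). These shares describe the lists, which were not tested. Not every list of basic cell functions was high: 16 of 78 mitochondrial ribosomal proteins, 8 of 32 spliceosome core and Sm proteins and 5 of 67 replication-dependent histone genes (7.46%) were members. Inducible genes were among the members too. Of immediate early and AP-1 genes 11 of 26 (42.3%) were members, and of LPS and interferon response genes 6 of 34, namely Tnfaip3, Nfkbia, Nfkb1, Nfkb2, Socs1 and Irf1. Of haematopoietic transcription factors 5 of 32 were members: Lmo2, Etv6, Fli1, Ikzf1 and Runx1. No member was found among 1135 olfactory receptor genes, 329 vomeronasal receptor genes, 106 keratin genes, 25 macrophage genes or 25 stem and progenitor genes.

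Peak width differed between these lists. Immediate early members had median widths of 2378 bp for H3K27ac and 1679.5 bp for H3K4me3, and haematopoietic transcription factors 2184 and 1684 bp. SR and hnRNP members had 1909 and 1268.75 bp. Proteasome members were narrow, at 1013 and 767.25 bp, and so were the subunits of the vacuolar ATPase, at 917 and 760 bp. The median rank was 1633.25 for SR and hnRNP members and 2099 for ribosomal proteins, against 2773 for all members.

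**Figure D2:**
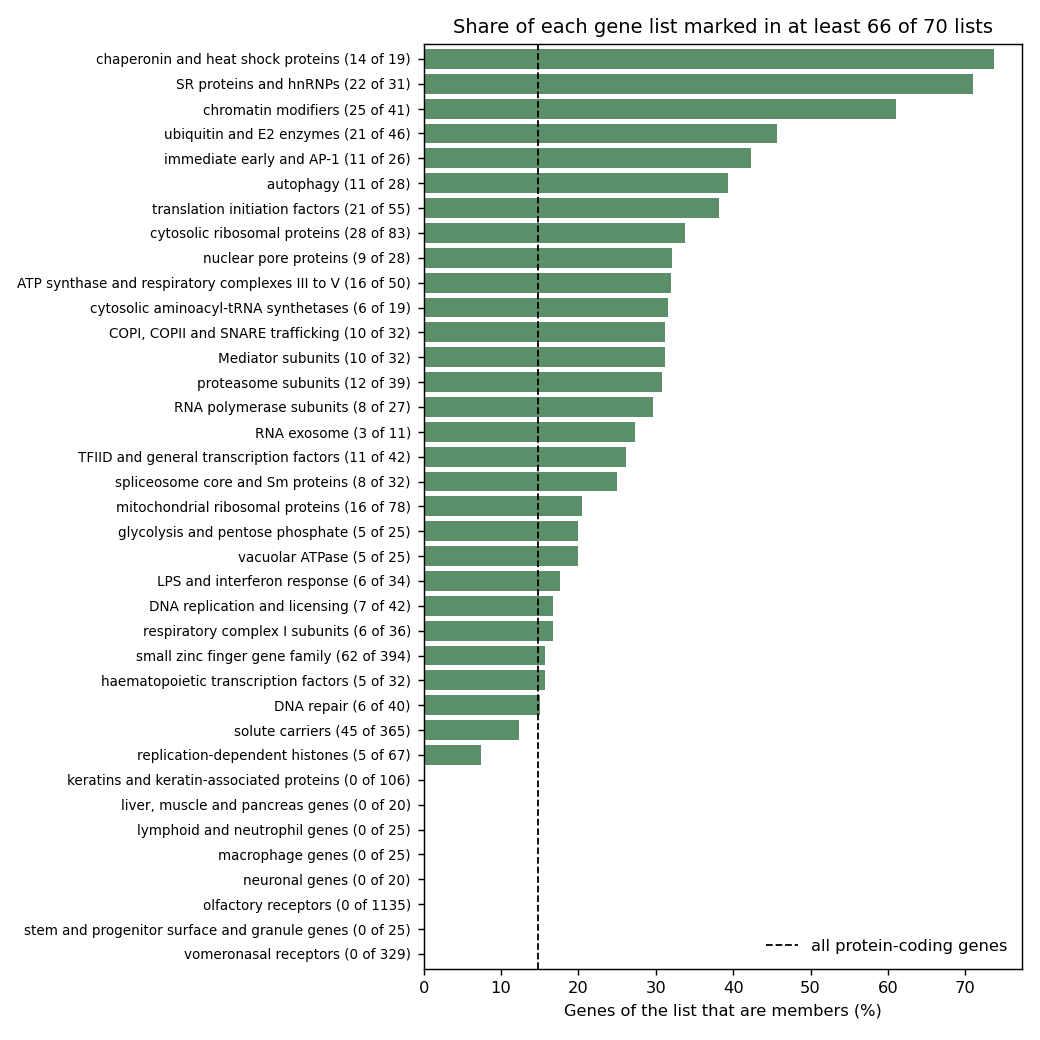
Share of each gene list that was a member, in percent, with the share of all coding genes (14.8%) as reference. Chaperonin and heat shock genes (73.7%) and SR and hnRNP splicing factors (71%) were at the top. The olfactory receptor, vomeronasal receptor, keratin, macrophage and stem and progenitor lists were among those at 0.

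Many members started back to back with another gene. A coding gene on the opposite strand started within 1000 bp upstream for 811 members (25%), against 2410 of all coding genes (11%), 13.5% of genes held in 1 to 65 lists and 1.16% of genes held in none. Members had a median of 5 annotated start sites and all coding genes 3, and more start sites give more chances of both a strong peak and a partner. The part of this in the shares was not tested. When only the most upstream start site of each gene was used to find partners, the shares were 15.1% for members and 6.78% for all. The partner was itself a member for 745 of the 811 (91.9%), and 378 of 381 pairs of members lay on 1 interval, so that their values are the same measurement. The windows of partners overlap, so 1 peak can make both genes members, and the share of 91.9% follows in large part from the rule. The median gap between the start sites was 101 bp. A further 345 members (10.6%) had only a non-coding partner, against 6.49% of all coding genes. The 3249 members lay on 2796 distinct intervals, and 884 (27.2%) shared theirs. Up to 4 members shared an interval, as did Bola1 and the histone genes Hist2h2ab, Hist2h2ac and Hist2h2be.

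The sequences between the start sites of 4 such pairs show how short the shared promoters can be. They are written along the forward strand (GRCm38.p6), with the gene on the reverse strand first, and capitals mark matches to the motifs named above.
Hjurp and Trpm8, chr1:88277634-88277660: ggggagggacgagagggagggtccgcc
Baz2b and March7, chr2:60209840-60209886: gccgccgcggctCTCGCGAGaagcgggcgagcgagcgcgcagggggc
Rgl1 and Arpc5, chr1:152766352-152766541: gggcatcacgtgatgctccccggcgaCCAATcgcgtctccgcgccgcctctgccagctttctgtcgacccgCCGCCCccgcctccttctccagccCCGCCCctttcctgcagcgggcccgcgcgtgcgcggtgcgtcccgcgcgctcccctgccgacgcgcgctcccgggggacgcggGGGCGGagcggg
Dnajb4 and Fubp1, chr3:152210303-152210421: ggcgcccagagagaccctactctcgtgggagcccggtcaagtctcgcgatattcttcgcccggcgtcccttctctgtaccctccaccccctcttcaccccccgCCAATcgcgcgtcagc
Among the other pairs with the lowest ranks, Ewsr1 and Rhbdd3 (median rank 411.5) start 7 bp apart, Cops2 and Galk2 (640) 9 bp and Gstcd and Ints12 (574.5) 15 bp. Hjurp and Trpm8 start 28 bp apart with no searched motif between them. Baz2b, a bromodomain gene, and March7, a ubiquitin ligase gene, start 48 bp apart around a CTCGCGAG. Rgl1 and Arpc5, a subunit of the actin-nucleating Arp2/3 complex, start 191 bp apart with CCAAT and GC boxes. Dnajb4, a chaperone gene, and Fubp1, which codes for a single-strand DNA-binding protein, start 120 bp apart with a CCAAT.

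The summits sat just inside the genes. The median summit lay 150 bp downstream of the nearest start site for H3K27ac and 158.5 bp for H3K4me3, and 92.6% and 90.3% of members had it within 500 bp. Members without a coding partner had median offsets of 172 and 182.25 bp, with 79.8% and 82.4% downstream. With a partner the medians were −4 and −11 bp. An interval shared by a pair is counted once from each gene, so offsets of both signs are built into the last values.

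No member lay on a sex chromosome. On autosomes 3249 of 20807 coding genes (15.6%) were members, from 10.2% on chromosome 7 to 19% on chromosome 12, while the X chromosome had 0 of 948 and the Y chromosome 0 of 183. The X gene held most often was Usp9x, a deubiquitinase gene, with 62 lists, of which 35 were H3K27ac and 27 H3K4me3. Next came Stag2, a cohesin subunit, and the ubiquitin-conjugating enzyme gene Ube2a (59 each), then the RNA helicase gene Ddx3x (58). At least 1 list held 359 X genes (37.9%), against 67.7% of autosomal genes. With the 20000 strongest peaks 36 X genes met the rule. HSC lists of H3K27ac held 182 to 207 X genes and unstimulated BMDM lists 115 to 161. Over all coding genes the same lists held 8683 to 9822 and 8009 to 9357. For H3K4me3 the X counts overlapped, at 69 to 117 in HSC and 39 to 92 in unstimulated BMDM. Every list had peaks on the Y chromosome, and male cells carry a single X. The part of copy number in these counts was not tested.

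**Figure D3:**
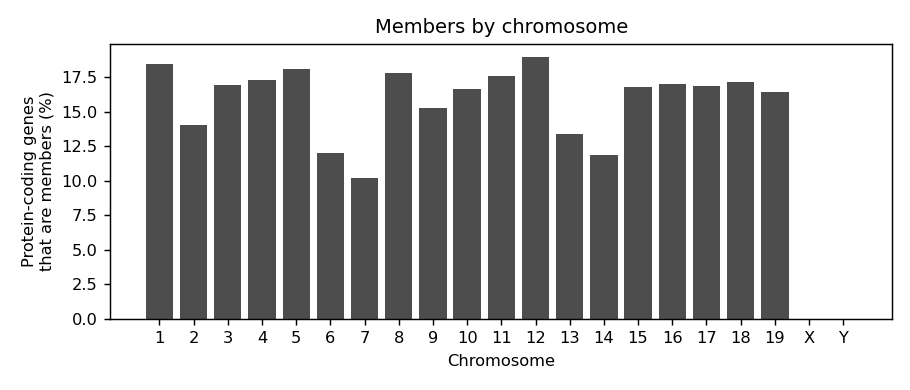
Share of coding genes on each chromosome that were members, in percent. Autosomes ranged from 10.2% to 19%, and X and Y were at 0.

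Ranks and widths of the members were compared between cell states inside the lists. The median H3K27ac rank of a member was 2469 in HSC, 2540 in unstimulated and 2657.5 in stimulated BMDM, and the median width 1483, 1249 and 1376 bp. For H3K4me3 the median rank was 2753.5, 3222 and 3425, and the width 963.5, 1025 and 1095 bp. Among libraries of 1 state, the ratio of the highest to the lowest value of a typical member was larger for rank than for width. The scales are unlike, and a list without a strong peak counted as the rank after the last but had no width. The highest rank number was 4.87 times the lowest in HSC for H3K27ac and 22.7 times for H3K4me3, while the widest peak was 1.53 and 2.79 times the narrowest. The marks were less far apart in BMDM. In unstimulated and stimulated BMDM the rank ratios were 7.99 and 7.98 for H3K27ac and 19.4 and 19.6 for H3K4me3. The width ratios there were 1.82 and 1.98 for H3K27ac and 1.83 and 2.11 for H3K4me3. Over the 3249 members, 85 pairs of H3K27ac libraries of the same group correlated in rank with a median r of 0.606, and H3K4me3 pairs with 0.139. Widths were closer, at 0.730 and 0.656. These correlations are across members, which share intervals and base composition.

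**Figure D4:**
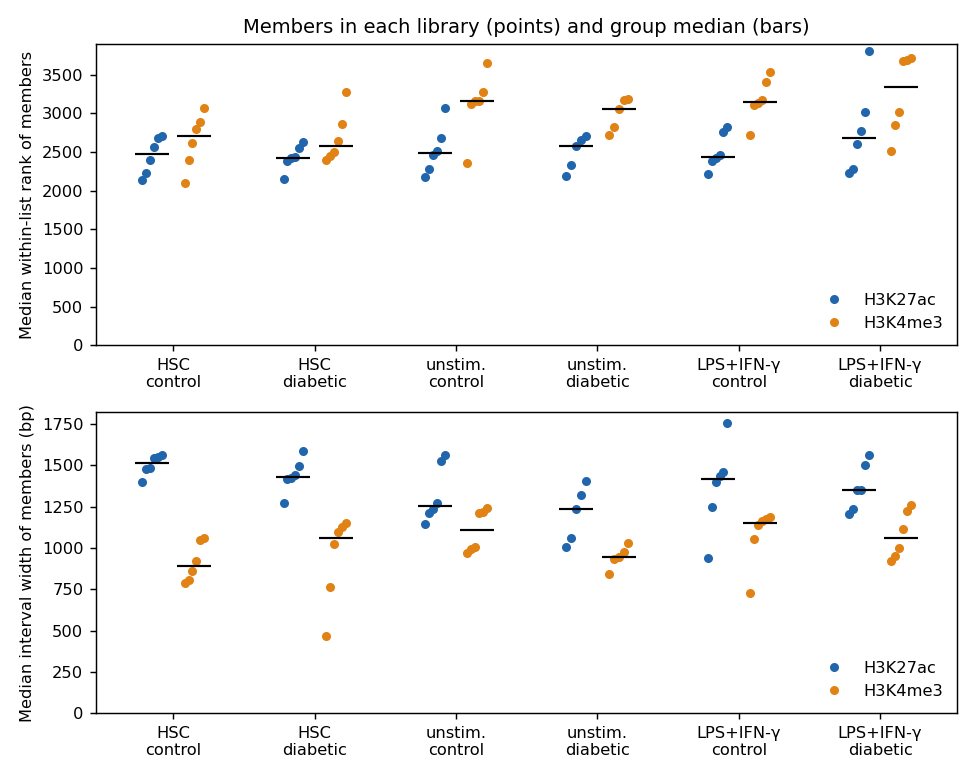
Median within-list rank (top) and median interval width in bp (bottom) of the members in each of 70 libraries, by cell state and disease. Points are libraries (blue H3K27ac, orange H3K4me3), bars are group medians, and the library medians spanned ranks of 2137.5 to 3811 for H3K27ac and 2102.5 to 3712.5 for H3K4me3.

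Each gene held in at least 18 of the 35 lists of a mark was tested with limma on −log2 rank, so that a difference of 1 means a rank number 2 times lower, or on log2 width centred on each library's median. A call was an adjusted p (Benjamini-Hochberg over all genes tested) under 0.05. Counts at an unadjusted p under 0.05 are not calls, since a share of about 0.05 of the members would reach it by chance alone. Since a member could lack a peak in at most 4 lists, its rank had less room to differ than that of other genes. In chromatin from bulk cells, fewer cells with a mark and less of the mark per cell cannot be told apart.

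Between HSC and unstimulated BMDM, H3K27ac rank was higher in HSC at 447 members and higher in BMDM at 410, or 13.8% and 12.6% of the members. Over all 9120 genes tested the shares called were 18% and 12.1%. Hbp1, an HMG-box repressor, ranked 2 to 84 in HSC (median 20.5) and 105 to 1688 in BMDM (median 545). The 2 ranges did not overlap, and the difference was 4.85 (SE 0.79, limma adjusted p = 8.52e-06). Dcaf1, a substrate receptor of a cullin ubiquitin ligase, had medians of 351 in HSC and 4780 in BMDM with overlapping ranges, a difference of 4.24 (SE 0.49, limma adjusted p = 4.72e-08). Nsd3, an H3K36 methyltransferase gene (medians 137.5 and 1487), and Rictor, a subunit of mTORC2 (634.5 and 4371), were also called higher in HSC. Klhl24, Pskh1, Rbm33 and Plekhm1 were called the same way, with differences of 2.68 to 3.38.

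Among the members with the largest differences towards BMDM were Cyfip1, Pim1 and Map4k3. Cyfip1, a subunit of the WAVE complex, ranked 19 to 2997 in BMDM (median 244) and from 3029 to past the last strong peak in HSC (median 3968). The ranges did not overlap, and the difference was −4.22 (SE 0.51, limma adjusted p = 8.26e-08). Pim1, a serine/threonine kinase gene, had medians of 131 in BMDM and 2515.5 in HSC, and the ranges overlapped. Map4k3, a kinase gene, ranked 51 to 1191 in BMDM (median 695) and 4893 or weaker in HSC, with no overlap. Nfkbia, the inhibitor of NF-κB, had medians of 267 and 2819.5, and Ets2, a transcription factor, 165 and 3202. Card19, Mdfic and Itpripl2 were called the same way with no overlap.

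**Figure D5:**
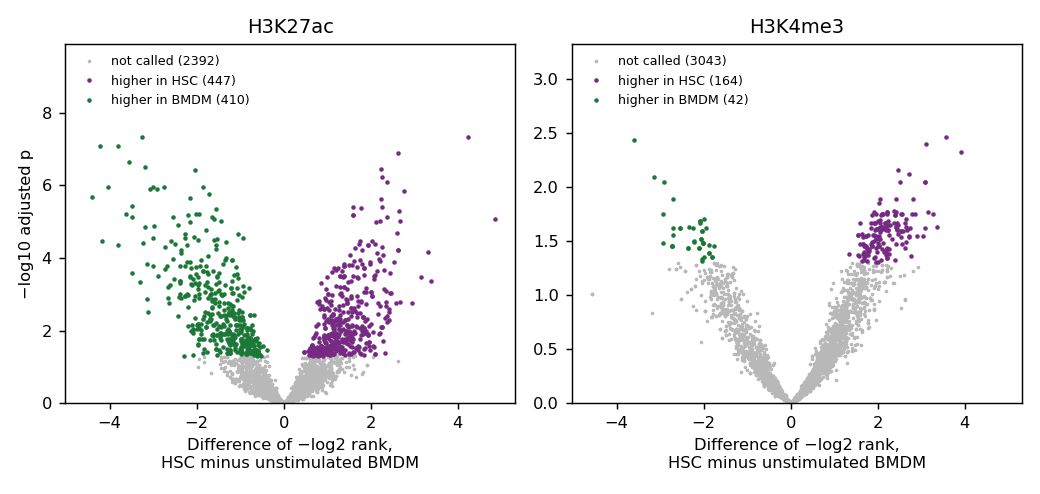
Difference of −log2 rank, HSC minus unstimulated BMDM, against −log10 of the limma adjusted p, with each point a member (left H3K27ac, right H3K4me3; the vertical scales differ). Called members are purple where higher in HSC (447 and 164) and green where higher in BMDM (410 and 42), and members that were not called are grey.

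Most gene lists had few calls or calls in both directions. Of 25 chromatin modifier members 5 were called higher in HSC, Ezh2 and Arid1a among them, and 3 in BMDM, Tet2 and Tet3 among them, and of 62 zinc finger members 9 and 8. Of 11 autophagy members 5 were called higher in HSC and 0 in BMDM, namely Wipi2, Atg16l1, Atg12, Map1lc3a and Ulk1. Of 21 translation initiation factors 4 were higher in HSC and 0 in BMDM. Of 11 immediate early members 1 (Dusp1) was higher in HSC and 5 (Fosl2, Junb, Ier5, Klf4, Zfp36l2) in BMDM, and of 6 LPS and interferon response members 3 (Nfkbia, Nfkb2, Irf1) in BMDM. Of 28 ribosomal protein members 1 was called. With peaks ranked by fold enrichment, 255 members in all were called in place of 857. Control unstimulated replicates 5 and 6, which went against their labels, are part of this comparison. Without the 3 libraries against their labels 805 members were called, and the counts by list were not repeated. The counts by list were read beside the 13.8% and 12.6% of all members, and no list was tested.

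For H3K4me3, 164 members ranked higher in HSC and 42 in BMDM, or 5.05% and 1.29% of the members. Over all 9449 genes tested the shares called were 4.14% and 2.68%. The lists differed in length, with group medians of 49624 peaks in control and 89111 in diabetic HSC. In unstimulated BMDM the medians were 161118 and 96580. The shortest list, diabetic HSC replicate 6, had 13730 peaks. The part of list length in these calls was not tested. Ezh2, the methyltransferase of Polycomb complex PRC2, had medians of 382 in HSC and 3902 in BMDM, with a difference of 3.27 (SE 0.82, limma adjusted p = 0.0177) and overlapping ranges. Stt3b, a subunit of oligosaccharyltransferase, had medians of 579 and 4963, and Brd7 364.5 and 4162. Higher in BMDM were Spata6 (medians 234 in BMDM and 5611 in HSC) and Elovl1, a fatty acid elongase (1460 and 7775). Of the same 25 chromatin modifier members 4 (Ezh2, Kdm5b, Arid1a, Kdm1a) ranked higher in HSC and 0 in BMDM. Without the 3 libraries of the same groups and numbers as those against their labels, 69 members (2.12%) were called higher in HSC and 27 (0.831%) in BMDM, where 1.91% and 1.5% of all 9263 genes tested were called. The total of 206 was 24 with peaks ranked by fold enrichment, 349 on untransformed ranks, 315 with the 20000 strongest peaks and 135 without diabetic unstimulated BMDM replicate 1. Both marks ranked higher in HSC at 48 members, which is 10.7% of the H3K27ac calls and 29.3% of the H3K4me3 calls, with Ezh2, Arid1a, Kdm5b and the insulator protein gene Ctcf among them (examples chosen after their values were seen). Both ranked higher in BMDM at 10 (2.44% and 23.8%), among which Arl16 and both entries of Hgs share an interval. Of the 164 H3K4me3 calls towards HSC, 6 had H3K27ac called towards BMDM. Of the 42 towards BMDM, 4 had H3K27ac called towards HSC. The overlap over all genes tested was not counted, and the overlap of the marks was not tested.

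Widths were tested for each mark on its own. The H3K27ac peak was wider in HSC at 330 members and wider in BMDM at 310, or 10.2% and 9.54% of the members. Over all 8667 genes tested the shares called were 12.5% and 10.0%. Widths are relative to each library's median, and without this centring 996 members were wider in HSC and 42 in BMDM. Inppl1, the phosphatase SHIP2, had peaks of 800 to 978 bp in HSC and 942 to 3131 bp in BMDM, a log2 difference of −1.47 (SE 0.12, limma adjusted p = 3.11e-09). Pcgf5, a Polycomb subunit, had 713 to 1529 bp in HSC and 1557 to 2275 bp in BMDM, with no overlap. Wider in HSC were Ulk1, the autophagy kinase (medians 2600 and 1167 bp), Daxx, a histone H3.3 chaperone (2397.5 and 783 bp), Mdm4, a p53 inhibitor (1896.5 and 633 bp), and Tnfaip3, the NF-κB inhibitor A20 (2333 and 1043 bp). For H3K4me3, 35 members were wider in HSC and 28 in BMDM, or 1.08% and 0.862% of the members. Over all 8812 genes tested the shares called were 0.635% and 1.49%. Nr3c1, the glucocorticoid receptor gene, had medians of 2452.5 bp in HSC and 1028 bp in BMDM, and Lonp1, a mitochondrial protease gene, 670.5 and 1713 bp.

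Stimulation changed the H3K27ac rank of few members. With LPS+IFN-γ 19 members ranked higher and 46 ranked lower, that is higher in unstimulated BMDM, or 0.585% and 1.42% of the members. Over all 9120 genes tested the shares called were 0.713% and 1.59%. H2-Q7 had a median rank of 7.5 in stimulated BMDM (1 to 227) and 371 in unstimulated (5 to 1528), a difference of 4.93 (SE 0.91, limma adjusted p = 0.00141). Socs1, an inhibitor of cytokine receptor signalling, had medians of 521 and 3336, and Actg1, the gamma actin gene, 60.5 and 303. Lower after stimulation were Nr4a2, a nuclear receptor gene (medians 5956 and 508), Cyfip1 (2178.5 and 244), Pim1 (773 and 131) and Sik1, a salt-inducible kinase gene (a difference of −2.38). In each of these genes the ranges overlapped. Without the 3 libraries against their labels 83 members (2.55%) ranked higher and 146 (4.49%) lower, where 2.54% and 4.44% of all 9047 genes tested were called, and each of the genes named here was still called. With peaks ranked by fold enrichment instead of −log10 p, limma called 0 members (260 at an unadjusted p under 0.05). Within control mice alone limma called 0 (218 at an unadjusted p under 0.05), within diabetic mice 64, and within control mice without the 3 libraries 47. Of the libraries left out 1 at a time, 7 H3K27ac control BMDM libraries moved the total of 65 by more than 1.5 times: it was 36, 43, 121 and 39 without LPS+IFN-γ replicates 1, 2, 5 and 6, and 39, 33 and 120 without unstimulated replicates 3, 4 and 5.

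No other measure had a called member for stimulation. limma called 0 members for H3K27ac width, H3K4me3 rank and H3K4me3 width, where 0% of all genes were called in either direction, and 259, 156 and 149 members had an unadjusted p under 0.05. The smallest p for H3K27ac width was at the shared promoter of Alg2 and Sec61b, a subunit of the protein translocation channel, with medians of 1588 bp after stimulation and 786.5 bp without (limma adjusted p = 0.113).

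Between diabetic and control mice, as the mean over the 3 cell states, limma called 0 members for rank and 0 for width in either mark, and 0% of all genes in either direction. A difference in a single state is diluted in this mean, and disease was not fitted in each state alone. The 3 libraries against their labels were not left out together here. Ranks inside a list and centred widths cannot show a gain or loss of a mark over all peaks. An unadjusted p under 0.05 was found at 93 members for H3K27ac rank, 182 for H3K27ac width, 112 for H3K4me3 rank and 118 for H3K4me3 width. By chance alone a share of about 0.05 of the 3249 members would reach it, so these counts do not show a difference. Polr2c, a subunit of RNA polymerase II, had median H3K27ac ranks of 3108 in 17 diabetic and 1550.5 in 18 control libraries (limma adjusted p = 0.999). Spen, a transcriptional repressor gene, had median H3K4me3 widths of 1014 and 1113 bp (limma adjusted p = 0.357). In both genes the ranges overlapped.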

How the data were processed

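H3K27ac and H3K4me3 ChIP-seq lists of 70 libraries were used, grouped as labelled, and the 36 input libraries were not. Reads were single and 50 bp long. The submitters' processing notes name the build GRCm38/mm10 and, without their order, the tools Trim Galore 0.3.3, cutadapt 1.8, Bowtie2 2.2.6 (an aligner), Picard, bedtools 2.19.1 and MACS2 2.2.7.1 (a peak caller). The deposited lists give for each peak a fold enrichment (a ratio over the local background) and −log10 p-values, both the authors' own and comparable inside 1 list only. Read depth is not given in these lists.

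Intervals with several summits were taken as 1 peak, and the 10000 with the highest −log10 p were ranked. Promoters came from GENCODE M21, and 0 of 7828714 peaks ran past a GRCm38 chromosome end. A list without a strong peak was given the rank after the last. limma 3.58.1 (R 4.3.3) was fitted to the 35 libraries of a mark as 6 group means, with contrasts averaged over disease or cell state, over genes held in at least 18 of 35 lists. Width was tested where each group of a contrast had at least 2 values, a filter added to the design. Same-numbered replicates did not deviate together in every pair, so the fits had no replicate block. That does not show that the same number marks different animals. Between stimulated and unstimulated BMDM, 5 of 11 H3K27ac and 7 of 11 H3K4me3 pairs correlated above 0.1 in width. In rank 4 and 2 of 11 did. Python 3.11.15, pandas 2.3.3 and scipy 1.17.1 were used, and the test was tested on simulated data. Named genes were the members with the 15 lowest median ranks or the 10 largest widths, the 8 divergent pairs of lowest rank, the 5 genes of lowest rank at 66 and at 65 lists, and per contrast the called members with the largest difference in each direction (8 for cell type, 5 for stimulation), or the 3 with the smallest p where none was called. Members, gene lists and tests were chosen with earlier results of these data known.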

Additional observations from a re-analysis of the deposited data

Results flagged for a closer look

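Of 48 combinations of a group and a measure, 6 had a library far from the others of its group by Dixon's criterion, which chance alone meets in about 1 in 20. For H3K27ac, control LPS+IFN-γ replicate 3 held 3113 members (others 3231 to 3249), control unstimulated replicate 1 held 3134 (3233 to 3249), diabetic HSC replicate 6 held 3174 (3233 to 3249) and diabetic LPS+IFN-γ replicate 3 held 2899 (3197 to 3249). For H3K4me3, diabetic LPS+IFN-γ replicate 3 held 2669 (3041 to 3238). The median width of members in H3K4me3 control LPS+IFN-γ replicate 3 was 729.5 bp, against 1056 to 1189 bp in the others.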

How the results depend on the processing

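The number of members depended on the rule: 140 with the top 5000 peaks, 7610 with the top 20000, 61 when ranked by fold, 1760 when each summit counted as a peak, 537 for all 70 lists and 5639 for at least 60. The share with a divergent coding partner was 23.4% within 500 bp, 21.7% within 300 bp and 15.1% from the most upstream start site. For HSC against unstimulated BMDM, H3K27ac rank calls were 255 when ranked by fold and 774 to 864 without 1 library. H3K27ac width calls were 1038 uncentred and 523 to 723 without 1 library. H3K4me3 rank calls were 349 on untransformed ranks, 24 by fold, 315 with the top 20000 peaks, 96 without the 3 libraries and 135 to 285 without 1 library, and width calls 42 to 79. For stimulation, H3K27ac rank calls were 0 by fold, 229 without the 3 libraries, 0 within control mice and 33 to 121 without 1 library. H3K27ac width calls were 4 without the 3 libraries and 0 to 2 without 1 library (2 without diabetic unstimulated replicate 1, control LPS+IFN-γ replicate 3 or control unstimulated replicate 3, and 1 without control unstimulated replicate 5), and H3K4me3 width calls 1 without the 3. Disease calls for H3K4me3 width were 0 to 1 without 1 library (1 without control LPS+IFN-γ replicate 2, control unstimulated replicate 4 or 6, or control HSC replicate 4). The cause of these changes was not tested. The settings within control or diabetic mice were chosen after seeing the data. With the replicate number as a block the calls were 826 and 588 for H3K27ac rank and width, 239 and 73 for H3K4me3 between cell types, 37 for H3K27ac rank after stimulation, and 0 elsewhere. In no comparison did every same-numbered pair correlate above 0.1. Read depth is unknown, so no counting error can be given.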
